A study of Callithrix jacchus with 5 samples.

Results

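ES line No20 of the common marmoset, a New World primate, was compared with the other ES lines of the series, No40 and DSY127, across all genes. ES cells are pluripotent cells taken from early embryos and kept in culture. The comparison used 3 of the 5 libraries in the series: No20 (titled with P number 45), No40 (P number 63) and DSY127 (P number 17). The iPS library RNAiPS_1, from induced pluripotent stem cells, served as a check from outside the ES lines, and a fibroblast library (P number 1) gives the level in a cell that is not pluripotent. Of 30811 genes in the count table, 16858 had enough reads in the ES libraries to be tested. Each line has 1 library and the labels name no separate cultures. Line and P number therefore cannot be told apart, and the p-values measure only the spread between No40 and DSY127. No genotype, sex or treatment is given in the labels, and the culture conditions were not used here.

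In mammals, pluripotent cells hold their state through a small circuit of transcription factors, with POU5F1, SOX2 and NANOG at its core. Naive pluripotency, the state of the early epiblast, and primed pluripotency, that of the later epiblast, differ in the further factors that they express. Genes of the germ line and the oocyte are mostly silent in body cells, where DNA methylation keeps many of them shut, and some of them are active in pluripotent cells. Genes such as EOMES and CER1 mark the primitive streak and the endoderm, which arise when pluripotency ends.

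Total counts were 40825547 in No20, 46523012 in No40, 34111715 in DSY127 and 58601185 in the fibroblast library, against only 5746449 in the iPS library. Levels are given in CPM, the usual depth-scaled count, here with library totals adjusted by TMM factors, and CPM values of different genes are not compared because they depend on gene length. A count of 3 corresponded to 0.0683 CPM in No20 and to 0.514 CPM in the iPS library. The label of No20 was checked against 11 ES cell markers, of which 9 were tested. The core factors were present at levels like those in the other lines. POU5F1 stood at 1126 CPM in No20, 1399 in No40, 1726 in DSY127, 1303 in iPS and 1.65 in fibroblasts. NANOG stood at 520.0 CPM in No20, 459 in No40, 559 in DSY127 and 546 in iPS. Neither passed the test, with log2 fold changes of -0.47 ± 0.41 (SE) for POU5F1 and 0.03 ± 0.41 for NANOG. SOX2 (log2 fold change -0.48 ± 0.45) and the RNA-binding protein gene LIN28A (-0.53 ± 0.45) did not pass either. The remaining tested markers had log2 fold changes below 0 without passing. These were -3.26 for GDF3, -1.80 for DNMT3B, -1.66 for CDH1, -0.70 for SALL4 and -0.33 for EPCAM. GDF3 stood at least 4-fold below both other lines.

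More genes were lower than higher in No20 by edgeR, although the balance depended on the method. In edgeR's quasi-likelihood test with Benjamini-Hochberg adjustment, 65 genes were lower in No20 than in the other ES lines (0.386% of those tested) and 18 were higher (0.107%), or 83 in either direction (0.492%). At an unadjusted p under 0.05, 1005 genes were lower and 576 higher. These calls rest on the spread between the other lines, which gives 1 residual degree of freedom, and on the assumption that No20 varies like them. With the iPS library added to the reference, edgeR made 0 calls in either direction, with 840 genes lower and 517 higher at an unadjusted p under 0.05 and a smallest adjusted p of 0.106. All 34 named genes that passed kept their direction in that fit. They were chosen from these same libraries, so the kept direction is no independent check. DESeq2 on the comparison as first set called 244 genes lower and 55 higher, and limma voom 18 lower and 13 higher.

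A second count needs no model of spread. By it, 463 genes (2.75%) stood at least 4-fold below both other ES lines in No20 and 130 (0.771%) at least 4-fold above both, on log2 CPM with a prior count of 2. By the number of genes at least 4-fold apart, No20 also lay farther from either line than these lay from each other. At least a 4-fold difference separated No20 from No40 at 1241 genes (7.36%) and from DSY127 at 1236 (7.33%), and separated No40 from DSY127 at 753 (4.47%). From the iPS library No20 was separated at 2435 genes (14.4%), No40 at 1846 (11.0%) and DSY127 at 1702 (10.1%). The median absolute log2 difference over all genes tested ordered the ES lines otherwise. It was 0.55 between No20 and No40, 0.46 between No20 and DSY127 and 0.49 between No40 and DSY127.

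**Figure D1:**
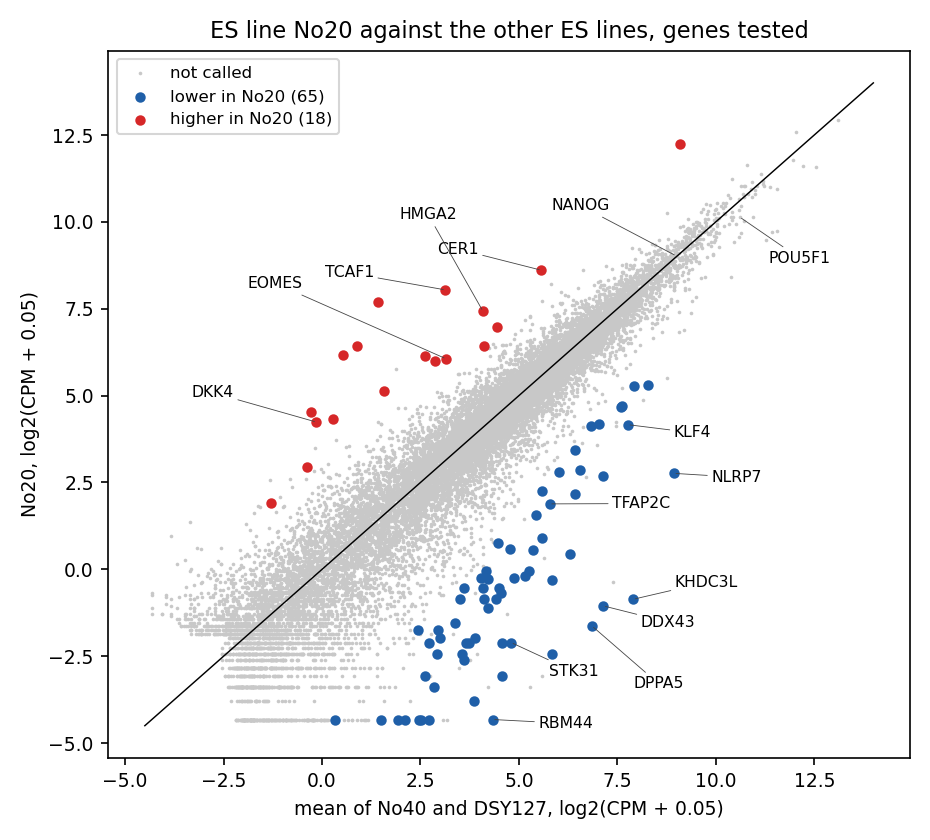
Level of each tested gene in No20 (vertical axis) against the mean of No40 and DSY127 (horizontal axis), both as log2 of CPM plus 0.05; each point is a gene, and the line marks equal levels. The 65 genes called lower lie far below the line and the 18 called higher above it, while POU5F1 and NANOG lie near it.

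Chromosomes 9, 15 and 22 were set apart because whole-chromosome shifts are described for them further on. Outside them 14290 genes were tested, of which 49 were lower in No20 (0.343%) and 16 higher (0.112%), 65 in all (0.455%). There limma voom called 11 lower and 12 higher, and leaving out DSY127, with the iPS library in the reference, gave 13 lower and 12 higher. There, 373 genes (2.61%) stood at least 4-fold below both other lines and 116 (0.812%) at least 4-fold above both. The median log2 fold change there was -0.08. Fitting with these chromosomes left out before scaling kept all 27 named calls outside them.

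Germ line genes were among those lost. Of 32 tested members of a list of germ cell and meiosis genes, 6 fell and 0 rose, and 14 stood at least 4-fold below both other lines, with a median log2 fold change of -1.81. Outside chromosomes 9, 15 and 22 these were 5 and 13 of 27 members, and the median was -3.23. Over all genes tested the matching shares were 0.386% and 2.75%, or 0.343% and 2.61% outside these chromosomes. The list was not lost throughout. Its members summed to 235 CPM in No20, 374 in No40, 572 in DSY127 and 680 in iPS. The members that fell were STRA8, SYCP1, TDRD1, TDRD6, TFAP2C and, on chromosome 9, PIWIL1.

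STRA8, the retinoic acid target that germ cells need to enter meiosis, stood at 12.7 CPM in No40, 13.7 in DSY127, 0.182 in No20 and 14.04 in iPS, with no count in fibroblasts. Its level was thus alike in the 3 other pluripotent libraries and near the floor in No20 (log2 fold change -6.15 ± 0.89, edgeR adjusted p = 0.0124). SYCP1, a central part of the synaptonemal complex that pairs chromosomes in meiosis, stood at 9.92 CPM in No40, 27.0 in DSY127, 0.410 in No20 and 56.2 in iPS (log2 fold change -5.48 ± 0.89).

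PIWIL1, TDRD1 and TDRD6 act in the piRNA pathway, which silences transposons in germ cells. PIWIL1, a PIWI protein that binds piRNAs, stood at 24.7 CPM in No40, 45.9 in DSY127, 0.819 in No20 and 52.7 in iPS (log2 fold change -5.42 ± 0.76, adjusted p = 0.0116, edgeR). The Tudor domain genes TDRD1 (34.01, 12.2, 0.569 and 20.4 CPM in the same order) and TDRD6 (18.2, 14.4, 0.796 and 20.4 CPM) encode partners of PIWI proteins and fell as well. No20 was the lowest of the 4 pluripotent libraries for each of these 3 genes. Other genes of the list did not pass. MAEL, a piRNA pathway factor, stood at 10.8 CPM in No40, 17.7 in DSY127 and 1.18 in No20 (adjusted p = 0.0565, edgeR). DDX4, the germ cell RNA helicase also called VASA, stood at 1.09 CPM in No40, 12.6 in DSY127, 0.0455 in No20 and 26.9 in iPS. MAEL and DDX4, both low in No20, were picked with their values in view. Of the 32 tested members of the list, 5 had a log2 fold change above 0.

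Outside that list, the named genes that fell included DDX43, STK31, RBM44 and LUZP4, which have known expression in the testis or germ cells. They were grouped by this trait after being picked for their large falls, and DPEP3, given further on, shares it. The share of such genes among all genes tested was not counted. DDX43, a DEAD-box RNA helicase of the testis, stood at 108 CPM in No40, 174 in DSY127, 0.432 in No20, 349.9 in iPS and 0.211 in fibroblasts. The level in No20 was 327-fold below the mean of the other lines (95% interval 209 to 543, counting error only), with a log2 fold change of -8.34 ± 0.74 and adjusted p = 0.000933 in the edgeR test. STK31, a Tudor domain kinase of germ cells, stood at 27.6 CPM in No40, 28.1 in DSY127, 0.182 in No20 and 25.7 in iPS (log2 fold change -7.23 ± 0.83). RBM44, an RNA-binding protein of the testis, had no count in No20 and stood at 4.46 CPM in No40, 35.8 in DSY127 and 95.5 in iPS. Against a floor of 3 counts in No20, RBM44 was at least 65.3-fold lower than in No40 and at least 524-fold lower than in DSY127. The X-linked gene LUZP4, known as a cancer-testis gene, stood at 7.76 CPM in No40, 15.7 in DSY127, 0.137 in No20 and 24.3 in iPS. For all 4 of these genes No20 was far below each of the other pluripotent libraries.

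Genes of the oocyte and the early embryo fell too. Of 10 tested members, 3 fell and 0 rose, and 5 stood at least 4-fold below both lines, with a median log2 fold change of -6.01. Outside chromosomes 9, 15 and 22 these were 2 and 2 of 6, with a median of -2.35. Over all genes tested 0.386% fell and 2.75% stood at least 4-fold below both lines, or 0.343% and 2.61% outside these chromosomes. KHDC3L and NLRP7 are maternal genes whose loss in human mothers is known to cause hydatidiform mole, and TLE6 belongs with KHDC3L to the subcortical maternal complex of the egg. KHDC3L stood at 109.9 CPM in No40, 369 in DSY127, 0.501 in No20 and 227 in iPS (log2 fold change -8.89 ± 0.98, adjusted p = 0.00343, edgeR). NLRP7, on chromosome 22, stood at 214 CPM in No40, 766 in DSY127, 6.73 in No20 and 739 in iPS (log2 fold change -6.18 ± 0.86). TLE6 stood at 22.3 CPM in No40, 22.05 in DSY127, 1.64 in No20 and 22.6 in iPS (log2 fold change -3.76 ± 0.68). TLE6 thus varied little among the other pluripotent libraries, while KHDC3L and NLRP7 varied more than 2-fold between No40 and DSY127. NLRP9, also on chromosome 22, was not called at 17.4 CPM in No40, 317 in DSY127 and 0.728 in No20 (adjusted p = 0.0656, edgeR). Members of the NLRP family may share reads with near copies, so their values are uncertain to that extent.

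**Figure D2:**
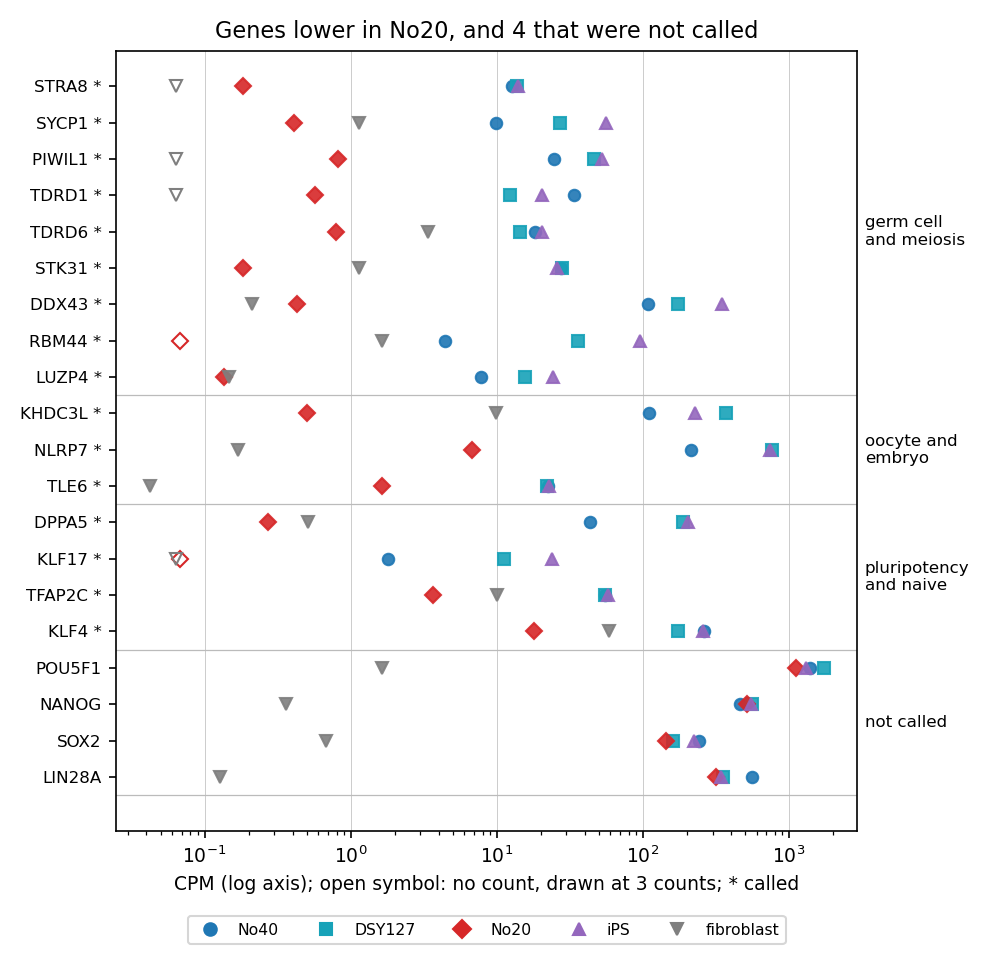
CPM on a log axis of 16 genes called lower in No20 (marked with an asterisk) and 4 core pluripotency genes that were not called, with 1 symbol per library; an open symbol means no count and is drawn at the level of 3 counts. For the genes with an asterisk the red diamond of No20 lies left of No40, DSY127 and iPS, while for POU5F1, NANOG, SOX2 and LIN28A the 4 pluripotent libraries lie close together.

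DPPA5, KHDC3L and DDX43 are neighbours on chromosome 4. The deposited coordinates come with no named genome build. In them DPPA5 spans 71626860 to 71627833, KHDC3L 71644408 to 71646131 and DDX43 71672609 to 71690637. DPPA5, a pluripotency marker with a KH domain like KHDC3L, stood at 43.6 CPM in No40, 188 in DSY127, 0.273 in No20 and 203 in iPS (log2 fold change -8.71 ± 1.11, adjusted p = 0.00716, edgeR). The genes on one flank were not called. CGAS, which encodes the DNA sensor cGAS, starts at 71696712 and stood at 4.42 CPM in No40, 9.39 in DSY127 and 4.80 in No20. MTO1, a gene of mitochondrial tRNA modification, stood at 40.04, 41.1 and 36.1 CPM. On the other flank KCNQ5, a potassium channel gene, was low in all 3 lines (0.403, 0.637 and 0.546 CPM). The low stretch in No20 was therefore bounded, on the side of CGAS, by genes with levels close to those of the other lines.

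Within the pluripotency network, naive state genes fell, while POU5F1, NANOG, SOX2 and LIN28A did not pass. Of 11 tested naive state genes, 3 fell and 0 rose, with 5 at least 4-fold below both lines and a median log2 fold change of -2.15. Outside chromosomes 9, 15 and 22 these were 3 and 4 of 9, with a median of -1.34. The shares over all genes tested were 0.386% lower and 2.75% at least 4-fold below both, or 0.343% and 2.61% outside these chromosomes. Of 16 core pluripotency genes, DPPA5 alone fell and 3 stood at least 4-fold below both, but 13 had a log2 fold change below 0 and the median was -0.62 (-0.70 outside the 3 chromosomes). None of 9 primed state genes passed in the edgeR test, which called 0.492% of all genes tested, and their median was 0.15.

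KLF4, a Krüppel-like factor used in reprogramming, stood at 263 CPM in No40, 174 in DSY127, 17.9 in No20 and 258 in iPS (log2 fold change -3.61 ± 0.54, adjusted p = 0.0153, edgeR). No20 was the only pluripotent library below the fibroblast level of 59.0 CPM. KLF17, a factor of the naive human epiblast, had no count in No20 or in fibroblasts, against 1.81 CPM in No40, 11.1 in DSY127 and 23.8 in iPS. It was at least 26.6-fold lower than in No40 and at least 163-fold lower than in DSY127 (log2 fold change -10.88 ± 1.98). KLF17 did not pass with total counts alone, DESeq2 or limma voom. TFAP2C, an AP-2 factor of naive cells, primordial germ cells and trophoblast, stood at 55.0 CPM in both No40 and DSY127, 3.64 in No20 and 57.7 in iPS (log2 fold change -3.92 ± 0.60, adjusted p = 0.0168, edgeR). TFAP2C counts in 3 of the lists, since it belongs to each of these programmes.

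Several abundant pluripotency genes had low values in No20 without passing the edgeR test. DNMT3B, the de novo DNA methyltransferase abundant in pluripotent cells, stood at 2962 CPM in No40, 1977 in DSY127, 707 in No20 and 1861 in iPS (log2 fold change -1.80 ± 0.45, adjusted p = 0.143, edgeR). LIN28B, which like LIN28A blocks let-7 maturation, stood at 666 CPM in No40, 654 in DSY127, 167 in No20 and 696 in iPS (adjusted p = 0.0982, edgeR). GDF3, a TGF-beta family ligand, stood at 184 CPM in No40, 678 in DSY127, 45.1 in No20 and 511 in iPS (adjusted p = 0.0982, edgeR). For each of these genes No20 held the lowest of the 4 pluripotent values. The list of 12 DNA methylation genes had 0 calls in the edgeR test, which called 0.492% of all genes tested. LIN28B and GDF3 were picked with their values in view.

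Markers of trophoblast and amnion, the outer layers of the conceptus, fell in 2 of 11 cases, TFAP2C and GABRP, and 4 stood at least 4-fold below both lines, with a median log2 fold change of -2.15. All 4 are among the 6 members outside chromosomes 9, 15 and 22, whose median was -4.35. Among all genes tested 0.386% fell and 2.75% stood at least 4-fold below both lines, the latter 2.61% outside these chromosomes. GABRP, a GABA receptor subunit used as an amnion marker, stood at 13.4 CPM in No40, 16.1 in DSY127 and 0.205 in No20 (log2 fold change -6.15 ± 0.93, adjusted p = 0.0153, edgeR). Here the iPS library, at 0.685 CPM, was also low. Over the whole list the median log2 CPM difference of No20 was -1.11 from No40, -2.37 from DSY127 and 0 from iPS.

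Other named genes that fell outside chromosomes 9, 15 and 22 do not share a list. DPEP3, a dipeptidase of the testis, stood at 22.9 CPM in No40, 24.7 in DSY127 and 0.182 in No20. CELF6, a splicing regulator, stood at 22.5, 19.9 and 0.501 CPM, and MSR1, a scavenger receptor of macrophages, at 11.5, 33.8 and 0.637 CPM. KIF12, a kinesin, had 3 counts in No20 and was 88.6-fold lower there than the mean of the other lines (95% counting interval 30.3 to 430).

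Fewer genes rose, and those with known roles in development belong to the primitive streak, endoderm and WNT groups. Of 15 tested endoderm genes, CER1 and EOMES rose, 0 fell, and the same 2 stood at least 4-fold above both lines. The shares over all genes tested were 0.107% higher and 0.771% at least 4-fold above both. EOMES, a T-box factor that starts endoderm formation, stood at 5.91 CPM in No40, 11.7 in DSY127, 66.7 in No20 and 2.57 in iPS (log2 fold change 2.92 ± 0.56, adjusted p = 0.0497, edgeR). CER1, a secreted inhibitor of NODAL, BMP and WNT made by the anterior endoderm, stood at 70.9 CPM in No40, 23.7 in DSY127, 391 in No20 and 5.48 in iPS (log2 fold change 3.04 ± 0.56, adjusted p = 0.0409, edgeR). In both cases No20 was above all 4 other libraries. Both lie close to the threshold, and with total counts alone or limma voom neither list member passed.

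The rest of the endoderm programme did not move as a block. The list's median log2 fold change was 0.65, or 0.23 outside chromosomes 9, 15 and 22, with 7 of 15 members below 0. MIXL1, a streak homeobox gene, stood at 3.91 CPM in No40, 6.65 in DSY127 and 24.6 in No20, and GATA6 at 16.3, 38.2 and 89.4 CPM, without passing. FOXA2, a definitive endoderm factor, stood at 5.67, 8.45 and 11.0 CPM, and GATA4 at 5.24, 9.80 and 3.57 CPM. TBXT, the streak and mesoderm factor Brachyury, stood at 10.9 CPM in No40, 114 in DSY127 and 9.26 in No20. These 5 genes were picked with their values in view. The mesoderm list of 8 genes had 0 calls in the edgeR test, which called 0.492% of all genes tested. In bulk RNA, a small share of cells with much of a transcript and a low level in all cells cannot be told apart, and fewer cells of a type cannot be told apart from less RNA per cell.

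Among 40 WNT pathway genes DKK4 alone rose and 0 fell. DKK4, a secreted WNT inhibitor, stood at 1.05 CPM in No40, 0.665 in DSY127 and 18.8 in No20, with no count in iPS or fibroblasts (log2 fold change 4.45 ± 0.71, adjusted p = 0.0224, edgeR). The list as a whole had a median of 0.02, with 2 members at least 4-fold above both lines and 5 at least 4-fold below. Over all genes tested these shares were 0.771% above and 2.75% below. CER1 was also the 1 call among 28 genes of the NODAL, activin and TGF-beta pathway. NODAL itself, named after its values were seen, stood at 31.9 CPM in No40, 61.5 in DSY127 and 93.5 in No20. The BMP (17 genes), FGF and MAPK (21), and NOTCH and Hedgehog (22) lists had 0 calls in the edgeR test. That test called 0.492% of all genes tested.

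HOX genes, which give cells their position along the body axis, had higher values in No20 almost throughout. Of 21 tested, 20 had a log2 fold change above 0 (also with RLE factors and with total counts alone), with a median of 1.48 against -0.07 for all genes, while 1 passed the edgeR test. HOXA13, HOXD1, HOXD10 and HOXB13 were among the 5 that stood at least 4-fold above both lines, and these 4 did not pass. Among all genes tested 0.107% rose by edgeR and 0.771% stood at least 4-fold above both. HOXD1 stood at 1.25 CPM in No40, 6.04 in DSY127, 54.2 in No20 and 0.887 in fibroblasts (adjusted p = 0.0556, edgeR). HOXB1 was the exception, at 0.383 CPM in No40, 0.111 in DSY127 and 0.0455 in No20. Summed over the list, HOX genes reached 142 CPM in No20, 24.5 in No40, 28.1 in DSY127, 5.48 in iPS and 272 in fibroblasts.

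**Figure D3:**
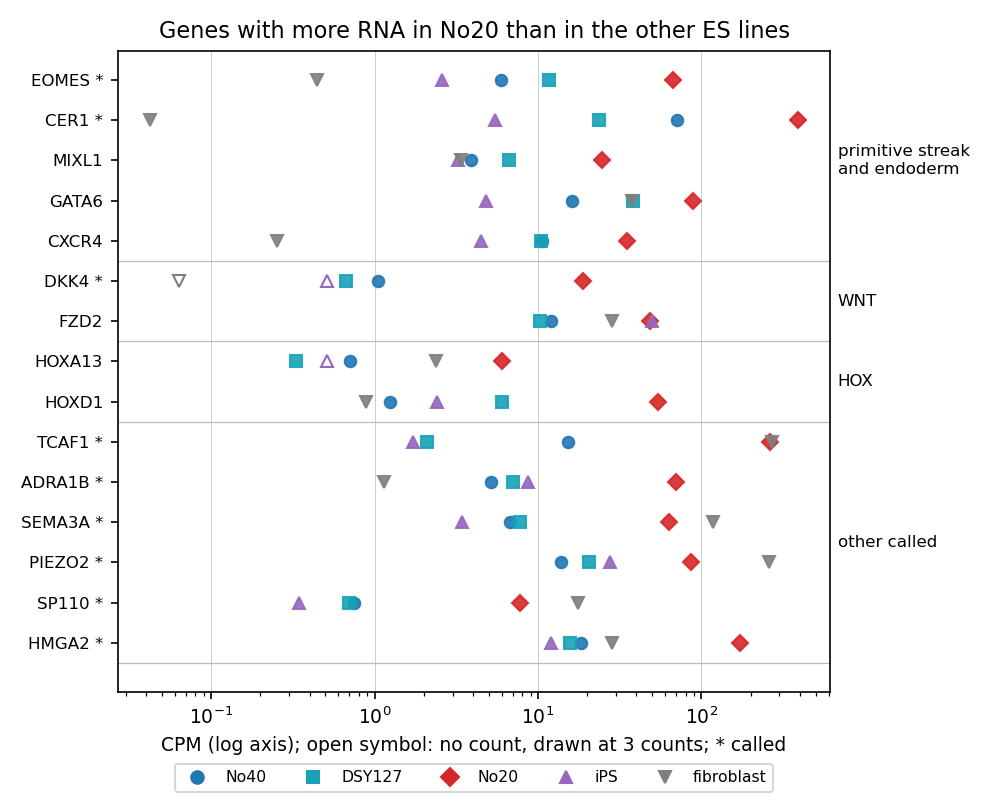
CPM on a log axis of 15 genes with higher values in No20 than in both other ES lines, with 1 symbol per library; an asterisk marks the 9 that passed the test, and an open symbol means no count and is drawn at the level of 3 counts. The red diamond of No20 lies right of No40 and DSY127 in every row, and near the fibroblast level for TCAF1.

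The other named genes that rose have no list in common. TCAF1, a regulator of TRP channels, stood at 15.4 CPM in No40, 2.08 in DSY127, 264 in No20, 1.71 in iPS and 272 in fibroblasts (log2 fold change 4.91 ± 0.80, adjusted p = 0.0240, edgeR). ADRA1B, an adrenergic receptor, stood at 5.14 CPM in No40, 7.01 in DSY127, 70.1 in No20 and 8.73 in iPS. SEMA3A, an axon guidance ligand, stood at 6.73, 7.78, 63.6 and 3.42 CPM in the same order. PIEZO2, a mechanosensitive channel, stood at 13.8, 20.5, 86.8 and 27.6 CPM, and SP110, an interferon-induced nuclear body protein, at 0.746, 0.692, 7.71 and 0.342 CPM. No20 exceeded the 3 other pluripotent libraries for each of these genes. TCAF1, SEMA3A, PIEZO2 and SP110 were also present in fibroblasts, at 272, 118, 258 and 17.6 CPM, whereas ADRA1B stood at 1.14 CPM there.

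Markers of other cell types that a culture could hold were counted in the same way. None of 34 fibroblast and mesenchymal genes passed in the edgeR test (median 0.13), and their summed level was 7234 CPM in No20, 7991 in No40, 6857 in DSY127 and 124047 in fibroblasts. COL1A1 and COL1A2, chains of type I collagen, stood at 849 and 227 CPM in No20, within or below the range of the other lines. The endothelial (13 genes), blood (4), muscle (9) and melanocyte (4) lists also had 0 calls. Endothelial genes had a median of 0.37, with 10 of 13 above 0. Of these 13, 2 stood at least 4-fold above both lines, against 0.771% of all genes tested. The endothelial genes summed to 703 CPM in No20, 692 in No40 and 621 in DSY127. Blood genes had a median of 1.26, with 3 of 4 above 0, and summed to 18.7 CPM in No20, 8.71 in No40 and 10.2 in DSY127. All 4 melanocyte genes were above 0 (median 0.46) and summed to 297, 296 and 266 CPM, whereas muscle genes had a median of -0.78. The part of such cells in the results was not tested. Of 18 neural and neural crest genes ELAVL3 fell and 0 rose. The neuronal and synaptic list (34 genes) had 0 calls by edgeR and a median of -0.68, with 25 members below 0. Its median log2 CPM difference of No20 from iPS was 0.004. Among the housekeeping and stress lists, cell cycle and mitosis (33 genes), DNA replication (30), DNA repair (33) and glycolysis (16) had 0 calls each by edgeR. So did oxidative phosphorylation (24), apoptosis regulators (15) and interferon response (23). Over all genes tested 0.492% were called, so 0 calls in lists of these sizes do not show that their members were unchanged.

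**Figure D4:**
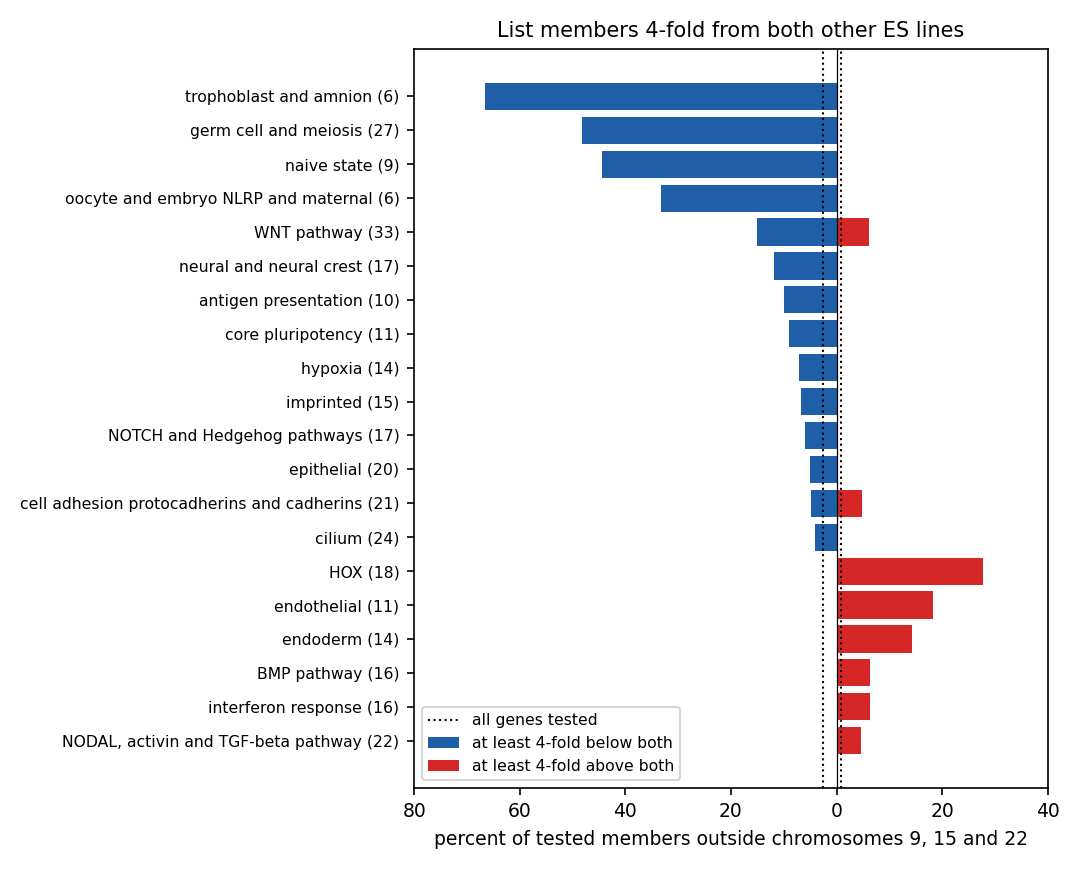
Percent of the tested members of each list, outside chromosomes 9, 15 and 22, that stood at least 4-fold below both other ES lines in No20 (blue, left) or at least 4-fold above both (red, right); the number tested is in parentheses, and lists with fewer than 6 tested or with no such member, and 1 other list, are left out. Dotted lines mark the share over all genes tested outside these chromosomes, 2.61% below and 0.812% above.

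The iPS library was set beside these calls without a test. For the 65 lower genes the median log2 CPM difference of No20 was -4.71 from No40, -5.15 from DSY127 and -5.03 from iPS. In 62 of them the iPS library stood at least 4-fold above No20, and GABRP was the only named exception. For the 18 higher genes the medians were 3.62, 3.56 and 4.78, and in 16 of them the iPS library stood at least 4-fold below No20, with PIEZO2 as the only named exception. Outside chromosomes 9, 15 and 22 the same held for 46 of 49 and 14 of 16 genes. These differences share the No20 library, so they are not independent of the calls.

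Chromosomes 9, 15 and 22 differed from the rest as whole chromosomes. The median log2 fold change was 0.29 over 855 genes of chromosome 9, 0.32 over 647 genes of chromosome 15 and -0.33 over 1066 genes of chromosome 22. The other chromosomes had medians from -0.18 (chromosome 20) to 0.07 (chromosome 13). Against No40 and DSY127 in turn, No20 differed by 0.28 and 0.35 on chromosome 9, by 0.28 and 0.31 on chromosome 15 and by -0.30 and -0.31 on chromosome 22. No40 and DSY127 differed from each other by -0.02 on each of the 3. Against the iPS library the medians of No20 were 0.40, 0.33 and -0.11. On chromosome 22 the iPS library itself stood at -0.20 from both No40 and DSY127. The share of genes above 0 was 65.8% on chromosome 9, 64.5% on chromosome 15 and 28.6% on chromosome 22, against 45% elsewhere. No test was made of these medians, and copy number was not measured.

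**Figure D5:**
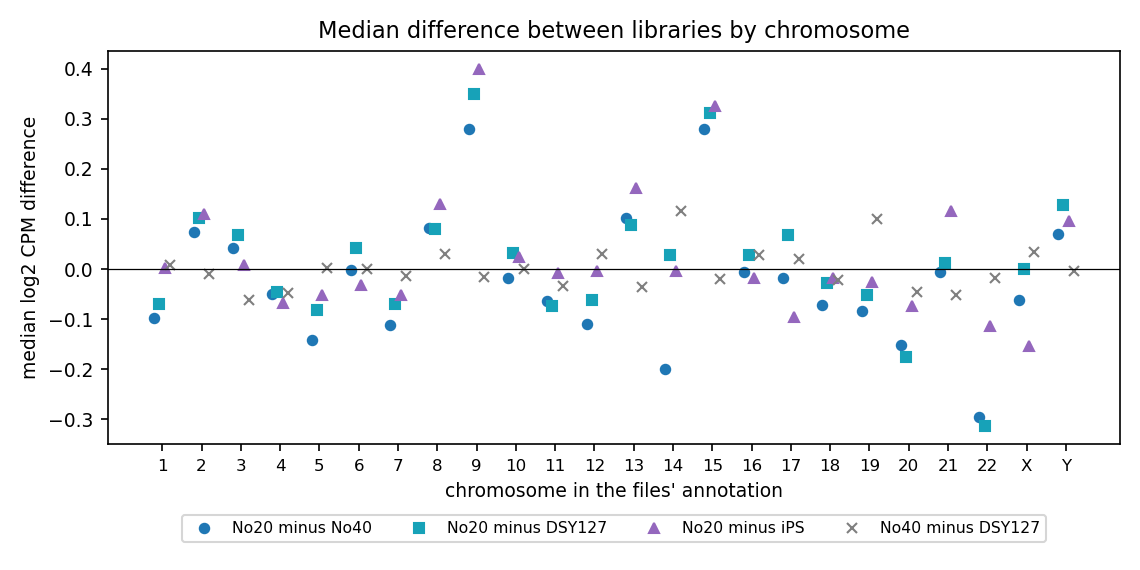
Median log2 CPM difference between pairs of libraries (vertical axis) over the tested genes of each chromosome (horizontal axis), with 1 symbol per pair. No20 lies above No40, DSY127 and iPS on chromosomes 9 and 15 and below them on chromosome 22, while No40 minus DSY127 lies near 0 on these 3 chromosomes.

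Single genes on these chromosomes differed by far more than the chromosome medians. On chromosome 9 the chromatin architecture gene HMGA2 rose, at 18.2 CPM in No40, 15.6 in DSY127, 173 in No20 and 11.98 in iPS (log2 fold change 3.35 ± 0.46, adjusted p = 0.0110, edgeR). Among named genes HMGA2 was the 1 that rose on these 3 chromosomes with at least 5 CPM, whereas PIWIL1 (chromosome 9), EFCAB12 (chromosome 15) and NLRP7, CHST8, ATCAY and ELAVL3 (chromosome 22) fell. CHST8, a sulfotransferase of hormone glycans, stood at 33.8 CPM in No40, 80.2 in DSY127, 0.751 in No20 and 59.7 in iPS. ATCAY, a neuronal protein gene linked to Cayman ataxia, stood at 12.02, 12.3, 0.114 and 7.36 CPM in the same order. EFCAB12, an EF-hand gene, stood at 7.06, 8.70, 0.205 and 2.91 CPM, and ELAVL3, a neuronal RNA-binding protein, at 14.3, 9.97, 0.637 and 10.6 CPM. Chromosome 22 held 1066 of the 16858 genes tested. Of the 65 lower calls 10 lay there, and of the 463 genes at least 4-fold below both lines, 56. It held 0 of the 18 higher calls by edgeR. The share called in either direction was 0.938% there, 1.03% on chromosome 16 and 1.21% on chromosome 17, against 0.492% over all genes tested.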

How the data were processed

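The authors deposited raw whole-number counts of reads per gene, not normalized, as a series table and 1 file per library, and the values were identical in both. Per the submitters' processing notes the tools were featureCounts 1.5.2, STAR 2.5.3a and Trim Galore 0.4.0, with no role stated. Nothing in the sources used here names the build, the annotation or how strand and multi-mapping reads were handled. Genes with near-identical copies or overlapping neighbours are therefore uncertain.

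Analysis of these counts ran in edgeR 4.0.16 under R 4.3.3. Genes were kept by filterByExpr on the 3 ES libraries. All 5 libraries were TMM-scaled and entered 1 quasi-likelihood fit with the levels No20, the other ES lines, iPS and fibroblast. The contrast was No20 minus the other ES lines, called at a Benjamini-Hochberg adjusted p under 0.05. The spread has 1 residual degree of freedom, moderated by a prior of 10.8, and the common biological coefficient of variation was 0.388. Alternatives used DESeq2 1.42.0 and limma 3.58.1. Exact Poisson 95% intervals and the 3-count floor cover counting error only.

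Of 30811 identifiers 12660 (41.1%) matched a symbol, as did 50 of the 83 called. Of 1281 entries in 45 gene lists, which share some members, 869 were tested. Named genes are the 15 largest called changes per direction that reach 5 CPM in the group with more RNA, outside chromosomes 9, 15 and 22, and the 5 largest per direction on them. To these are added, per list, the called members with the lowest adjusted p (at most 4), together with POU5F1, NANOG, SOX2, LIN28A, DNMT3B, XIST, among others. XIST had no match and is not analysed here, and some other genes that the rule gives are not reported. The comparison, members and lists were chosen with earlier results of these data known.

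In simulated counts for this comparison (16446 genes), 16% of 4-fold lower and 42% of 4-fold higher changes were recovered. Of 16-fold changes, 76% of lower and 98% of higher ones were recovered, and the run gave 5 false calls. Every simulated library, No20 included, was drawn around the mean of No40 and DSY127 with the fitted spread. Changes were placed only in genes above a minimum level. That No20 varies like these lines was thus built in, so the false calls do not give the error rate in the real data.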

Additional observations from a re-analysis of the deposited data

How the results depend on the processing

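Counts of calls depended on the setting. All 34 named calls kept their direction in each fit that tested them. Each stood at least 4-fold from both other lines, and every fit held No20 and at least 1 of these lines. The kept direction is therefore no independent check. Of the named calls, 34 still passed with RLE factors and with no low-count filter, 33 with the 3 ES libraries alone and 32 with DESeq2. Total counts alone kept 25, limma voom 16 and a stricter low-count filter 31 of 33. With the iPS library added to the reference 0 passed, and the edgeR counts were 0 for all genes in both directions, for those outside chromosomes 9, 15 and 22, and for the germ cell, oocyte, naive and endoderm lists. Genes lower in No20 (65) numbered 39 with total counts alone, 352 with no low-count filter, 244 with DESeq2 and 18 with limma voom, and those outside the 3 chromosomes (49) numbered 29, 281, 189 and 11. Genes higher (18) numbered 11 with total counts alone, 121 with no filter, 55 with DESeq2 and 13 with limma voom, and outside (16) 10, 103, 47 and 12. The germ cell list (6 lower) had 11 with no filter and 2 with limma voom, and the oocyte list (3 lower) 5 with no filter. The endoderm list (2 higher) had 0 with total counts alone or limma voom, 4 with no filter and 1 with the stricter filter. Leaving out No40 or DSY127 needs the iPS library in the reference so that a spread is left. Without each in turn the counts ranged from 20 to 37 lower and 9 to 13 higher, and outside the 3 chromosomes from 13 to 26 and 8 to 12. They ranged from 3 to 4 for the germ cell list, 2 to 3 for the oocyte list and 0 to 1 for the endoderm list. Without No40 15 of the named calls passed and without DSY127 16. The median of chromosome 22 was -0.312 with RLE factors and with total counts alone. The uncalled gene NANOG, near 0, changed sign, at -0.003499 with iPS in the reference and -0.02823 without No40. The causes were not tested. Scaling alternatives for the 4-fold counts and the distances between libraries were chosen after seeing the data. No paired analysis was possible because No20 has 1 library and the labels give no replicate numbers. The iPS library is the shallowest, so low genes are least certain there.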

Other observations

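Of 23 interferon response genes 19 had a log2 fold change above 0 (median 0.55) and 0 passed by edgeR, while SP110, outside that list, did. The genes named next were chosen after their values were seen. CDH5, which encodes VE-cadherin, stood at 1.37 CPM in No40, 4.21 in DSY127, 18.2 in No20 and 6.85 in iPS, and TIE1, an endothelial receptor kinase, at 0.867, 1.58, 6.71 and 3.42 CPM in the same order. PECAM1, another endothelial marker, stood at 191 CPM in No40, 257 in DSY127 and 286 in No20. IFIH1, the RNA sensor MDA5, stood at 3.23 CPM in No40, 5.35 in DSY127, 24.9 in No20 and 3.60 in iPS (adjusted p = 0.0900, edgeR). CHD7, a chromatin remodeller, stood at 50.3 CPM in No40, 44.8 in DSY127, 212 in No20 and 48.3 in iPS (adjusted p = 0.0578, edgeR). VIM, the intermediate filament gene of mesenchymal cells, stood at 426 CPM in No40, 446 in DSY127, 1234 in No20 and 567 in iPS, and CDH1, which encodes E-cadherin, at 810 CPM in No40, 525 in DSY127, 211 in No20 and 587 in iPS. No20 held the highest VIM and the lowest CDH1 value of the 4 pluripotent libraries. The fibroblast and mesenchymal list as a whole had a median log2 fold change of 0.13, with 15 of 34 members below 0. The epithelial list had a median of -0.48, with 21 of 23 below 0. EPCAM, another epithelial gene, was not lowest in No20, at 430 CPM in No40, 886 in DSY127, 522 in No20 and 633 in iPS.

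DNA methylation genes were measured but none passed in the edgeR test, which called 0.492% of all genes tested. TET1, which oxidises methylated cytosine, stood at 247 CPM in No40, 146 in DSY127, 96.3 in No20 and 164 in iPS. DNMT1, the maintenance methyltransferase on chromosome 22, stood at 28.5 CPM in No40, 37.3 in DSY127, 72.7 in No20 and 11.1 in iPS, opposite to the median of that chromosome. RBM46 and EZHIP, genes of the germ line, stood at 4.80 and 1.71 CPM in No40, 90.6 and 76.2 in DSY127, 0.0683 and 0.0455 in No20, and 65.4 and 43.0 in iPS. The spread between No40 and DSY127 was wide for both, and neither passed.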
